A study of Mus musculus with 30 samples.

Results

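Enterococcaceae is the family of Gram-positive cocci that holds Enterococcus, and it was followed here in the feces of 30 female C57BL/6 mice (C57BL/6J in the study's methods) by sequencing of the 16S rRNA gene. Its members were the amplicon sequence variants (ASVs, the distinct sequences that the deposited tables count) that the authors' taxonomy placed in this family and that had at least 1 count in these mice, which gave 316 of 12980 ASVs. The family was chosen by its shares in these same mice, with earlier results known, so its differences between groups are given as values of these mice rather than as independent evidence. The mice were 6 weeks old at the start, and each of the 5 groups had 6 mice. Control mice had a normal diet and saline by gavage, and model mice had a high-fructose diet (HFru) and saline by gavage. The other 3 groups had HFru and an oral dose of a phenylethanoid by gavage, with 50 mg/kg for salidroside, 23 mg/kg for tyrosol and 26 mg/kg for hydroxytyrosol. Feeding lasted 8 weeks in the study's methods and 12 weeks in its figure legends. The groups therefore allowed the family to be compared between HFru and normal diet, between each compound and HFru alone, and between the compounds. Every treated group was compared with the same 6 model mice.

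Enterococci are lactic acid bacteria. They ferment sugars to lactic acid, tolerate oxygen, bile and salt, and live in the gut of healthy mammals as a minor group. Some species act as opportunistic pathogens, and enterococci also grow in food and outside the host. The family belongs to the order Lactobacillales, with Lactobacillaceae and Streptococcaceae, and its other named genera here were Vagococcus, known from animals and food, and Melissococcus, whose named species is a pathogen of honeybee larvae.

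Depth ran from 41862 to 106609 counts per mouse, so a count of 0 allowed a share of up to 0.00717% in the shallowest mouse and 0.00281% in the deepest. These limits cover counting error only. All values are shares of the counts of a mouse, so a share also moves with the other taxa. Acinetobacter, the genus with most counts, ranged from 0.0312% to 84.2% of a mouse, with a median of 9.98% in control, 59.0% in model, 27.1% in salidroside, 60.2% in tyrosol and 2.44% in hydroxytyrosol mice, and results that depend on it are given without it. By Bray-Curtis distance over all ASVs, control 6 was closer on average to model mice (0.592) than to its own group (0.861), and 10 mice of the model, salidroside and hydroxytyrosol groups were likewise closer to another group. Model 6 was the farthest from its own group among the model mice (0.922). No cage or sequencing batch was named in the sources used here.

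The 316 members carried 5 genus labels. The label Enterococcus held 75 ASVs and 53.7% of the family's 95688 counts. The label for ASVs with no genus, called unclassified Enterococcaceae here, held 159 ASVs and 45.8% of the counts. Vagococcus (3 ASVs), Melissococcus (51 ASVs) and a further label, unidentified Enterococcaceae (28 ASVs), held 0.211%, 0.201% and 0.0961%. Of the 7 Enterococcaceae genera listed for this work, 3 had counts. The family made up 3.66% of all counts. A species was named for few of the Enterococcus ASVs, with Enterococcus casseliflavus for 6, Enterococcus sulfureus for 2 and Enterococcus asini for 1.

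Most members were rare. The median member had 4 counts in all, 104 members had 2 counts, the lowest total in this table, and 222 had 10 or fewer. Of the 316 members, 218 (69.0%) were found in 1 mouse, against 71.1% of all ASVs, and they held 1.10% of the family's counts. The 5 members with the largest mean share held 71.2%. They were ASV_44518 of Enterococcus and the unclassified ASV_81202, ASV_1360, ASV_43459 and ASV_20714. The most widespread member was found in 23 mice. In control mice 277 of the 316 members had 0 counts.

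The share of the whole family was low in control mice and varied widely under HFru. It ranged from 0% to 1.69% in control mice (median 0.0714%), from 0.674% to 10.5% in model mice (median 2.80%), from 0.454% to 28.7% in salidroside mice (median 1.83%), from 0.599% to 5.16% in tyrosol mice (median 1.85%) and from 0.161% to 7.32% in hydroxytyrosol mice (median 0.963%). Control 5 was the highest control mouse and lay within the model range, and control 4 had 0 family counts. The mean of the salidroside group rested on salidroside 5 and salidroside 6, while its median lay below that of the model group.

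**Figure D1:**
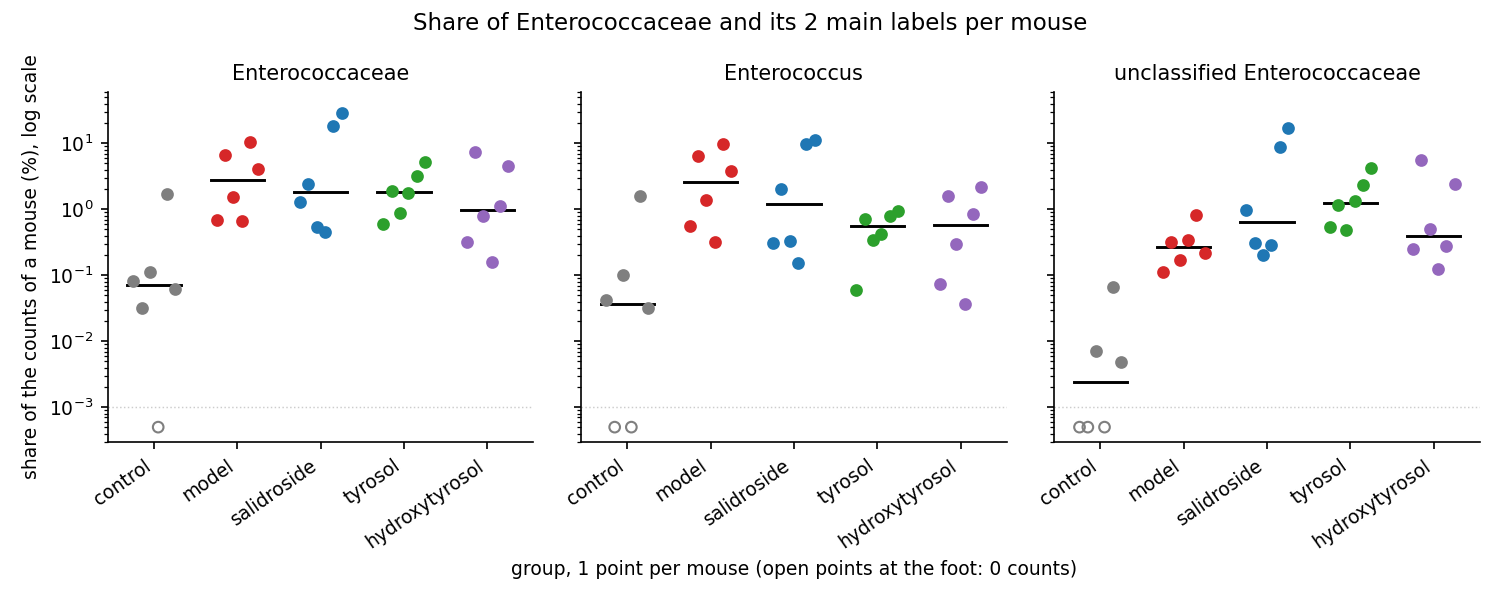
Share of the counts of a mouse (%, log scale) for Enterococcaceae, Enterococcus and unclassified Enterococcaceae in the 5 groups. Each point is a mouse, lines are medians, and open points at the foot are mice with 0 counts. All 6 model mice lie above all 6 control mice for the unclassified label, and control 5 lies within the model range for Enterococcus.

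Model mice had more Enterococcaceae than control mice. The mean share was 4.02% ± 3.94 (SD, n = 6) in model and 0.329% ± 0.668 (SD, n = 6) in control mice, a difference of 3.69 percentage points (two-sided exact permutation test, p = 0.0195), and of the 36 pairings across these groups the model mouse was higher in 33. At this threshold 7.69% of the 169 family labels were higher in model mice. Adjusted over all family labels the p was 0.235 by the exact permutation test, and 0 families passed in any of the 7 comparisons. For 6 against 6 mice the smallest p that the exact permutation test can give is 0.0022. Over this many labels, a label at that p passes the adjustment only if several others reach it too. Failing it therefore says little about a single label. In edgeR's quasi-likelihood test on the counts per family the log2 fold change was 5.39 (SE 1.53, adjusted p = 0.0137 over 58 families), where 8.62% of families were called higher. Without the TMM normalization the log2 fold change was 3.61 (edgeR, adjusted p = 0.0706). With control 6 and model 6 both left out, the difference was 3.64 points (exact permutation test, p = 0.0635).

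Enterococcus made up most of this difference. Its share ranged from 0% to 1.59% in control mice (median 0.0373%) and from 0.324% to 9.66% in model mice (median 2.60%). Only control 5 overlapped the model mice. The means were 0.294% ± 0.635 (SD, n = 6) and 3.68% ± 3.72 (SD, n = 6), which differed by 3.39 points (exact permutation test, p = 0.0195, adjusted p = 0.219 over 338 genus labels, 7.69% of which were higher at the unadjusted threshold). In edgeR the log2 fold change of 4.22 (SE 1.72, adjusted p = 0.0718) did not pass the threshold. It passed in DESeq2 (4.81, adjusted p = 0.00339) and under 5 other alternatives of the fit, with log2 fold changes from 4.67 to 6.42, and without control 5, the highest control mouse, it was 6.85 with an adjusted p of 0.0138. Without control 6 and model 6 the difference in shares was 3.30 points (exact permutation test, p = 0.0635).

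The unclassified Enterococcaceae separated model from control mice completely. They ranged from 0% to 0.0675% in control mice (median 0.00239%), with 0 counts in 3 of the 6, and from 0.114% to 0.815% in model mice (median 0.271%). The groups did not overlap, which held for 0.888% of the genus labels in this direction. The means were 0.0132% ± 0.0268 (SD, n = 6) and 0.330% ± 0.253 (SD, n = 6), and the exact permutation p of 0.0022 is the smallest that 6 against 6 mice can give (adjusted p = 0.122). The edgeR log2 fold change was 5.02 (SE 1.78, adjusted p = 0.0378), where 7.22% of 97 genera were called higher, and it lost the call without control 1, control 2, control 3, control 4 or model 5 (log2 fold changes from 4.52 to 5.43 and adjusted p up to 0.0843 in edgeR).

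The minor labels were near the detection limit. Vagococcus had counts in 4 of 6 control mice (median 0.0138%) and in 1 of 6 model mice, model 5, with 24 counts. Melissococcus ranged from 0% to 0.0135% in control and from 0.00199% to 0.0168% in model mice, and the 2 ranges overlapped. The unidentified label had at most 0.0219% in a control and 0.00798% in a model mouse. None of these 3 differed between model and control mice beyond the spread (exact permutation p = 0.242, 0.225 and 0.240). In control mice, where the family was sparse, Vagococcus made up between 0% and 43.5% of its counts, and in model mice at most 0.219%.

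Against model mice, the labels within the family differed in different directions with the compounds, and none passed after adjustment over all genus labels in the exact permutation test or edgeR, while DESeq2 called the 2 given below. As for the families, the exact permutation test could pass a label here only together with several others at its smallest p. Enterococcus had a lower mean with tyrosol. Its share ranged from 0.0609% to 0.932% in tyrosol mice (median 0.568%), so that tyrosol mice were higher than model mice in 8 of 36 pairs and the ranges overlapped. The mean of 0.547% ± 0.328 (SD, n = 6) was 3.13 points below that of the model group (exact permutation test, p = 0.0455, adjusted p = 0.622, with 4.09% of 342 genus labels lower at the unadjusted threshold). Leaving out any of 10 of the 12 mice (all but model 1 and model 4) gave an exact permutation p over 0.05, up to 0.0909. The edgeR log2 fold change was -3.00 (SE 1.12, adjusted p = 0.177), and DESeq2 called it with -3.02 and an adjusted p of 0.0306.

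Hydroxytyrosol mice also had low values of Enterococcus, from 0.0371% to 2.17% (median 0.573%), and were higher than model mice in 8 of 36 pairs. The mean was 0.838% ± 0.881 (SD, n = 6), with a difference of -2.84 points (exact permutation test, p = 0.102, not past the threshold). Of the counts without Acinetobacter, the difference was -8.29 points (exact permutation test, p = 0.0368), and in edgeR the log2 fold change was -2.82 (SE 1.31, adjusted p = 0.251). Salidroside mice ranged from 0.153% to 11.3% (median 1.18%) and lay on both sides of the model mice, with a difference of 0.316 points (exact permutation test, p = 0.883) that turned to -3.13 points of the counts without Acinetobacter and to -0.203 on the log10 scale. The edgeR estimate for salidroside over model mice was 0.02 (95% interval from -2.95 to 2.99 on the log2 scale), which spans differences of several-fold in both directions.

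Unclassified Enterococcaceae had a higher mean in tyrosol than in model mice, past the unadjusted threshold only. They ranged from 0.478% to 4.22% in tyrosol mice (median 1.25%), and tyrosol mice were higher in 34 of 36 pairs, with model 5 alone reaching into the tyrosol range. The mean was 1.69% ± 1.42 (SD, n = 6), 1.36 points above the model group (exact permutation test, p = 0.013, adjusted p = 0.392, with 3.51% of 342 genus labels higher at the unadjusted threshold). The exact permutation p stayed at 0.026 or below with each mouse left out. The edgeR log2 fold change of 2.20 (SE 0.979, adjusted p = 0.191) was not called.

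In salidroside mice the unclassified label ranged from 0.204% to 17.3% (median 0.639%), with a mean of 4.63% ± 7.04 (SD, n = 6). Its difference from model mice of 4.30 points had an exact permutation p of 0.106, and without salidroside 6 the mean was 2.09%. DESeq2 called it (log2 fold change 4.10, adjusted p = 0.00748) where edgeR did not (3.75, SE 1.55, adjusted p = 0.325). Hydroxytyrosol mice ranged from 0.124% to 5.66% (median 0.389%), with a difference of 1.21 points from model mice (exact permutation test, p = 0.260). For both groups the ranges overlapped that of the model mice.

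The makeup of the family was also compared between model and treated mice. This measure was chosen after the values were seen and was not tested. Unclassified ASVs made up between 4.86% and 50.6% of the family's counts in model mice (median 9.26%), and 5 of the 6 model mice were mostly Enterococcus. In tyrosol mice the range was from 55.1% to 89.8% (median 74.6%), above every model mouse. In salidroside mice it was from 13.0% to 75.6% (median 53.6%) and in hydroxytyrosol mice from 24.6% to 77.3% (median 69.7%), and both overlapped the model mice. The share of the whole family showed no such separation. It differed from the model group by 4.62 points with salidroside, -1.77 with tyrosol and -1.64 with hydroxytyrosol (exact permutation test, p = 0.442, 0.368 and 0.439), and the direction seen for salidroside lay within the spread between mice.

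**Figure D2:**
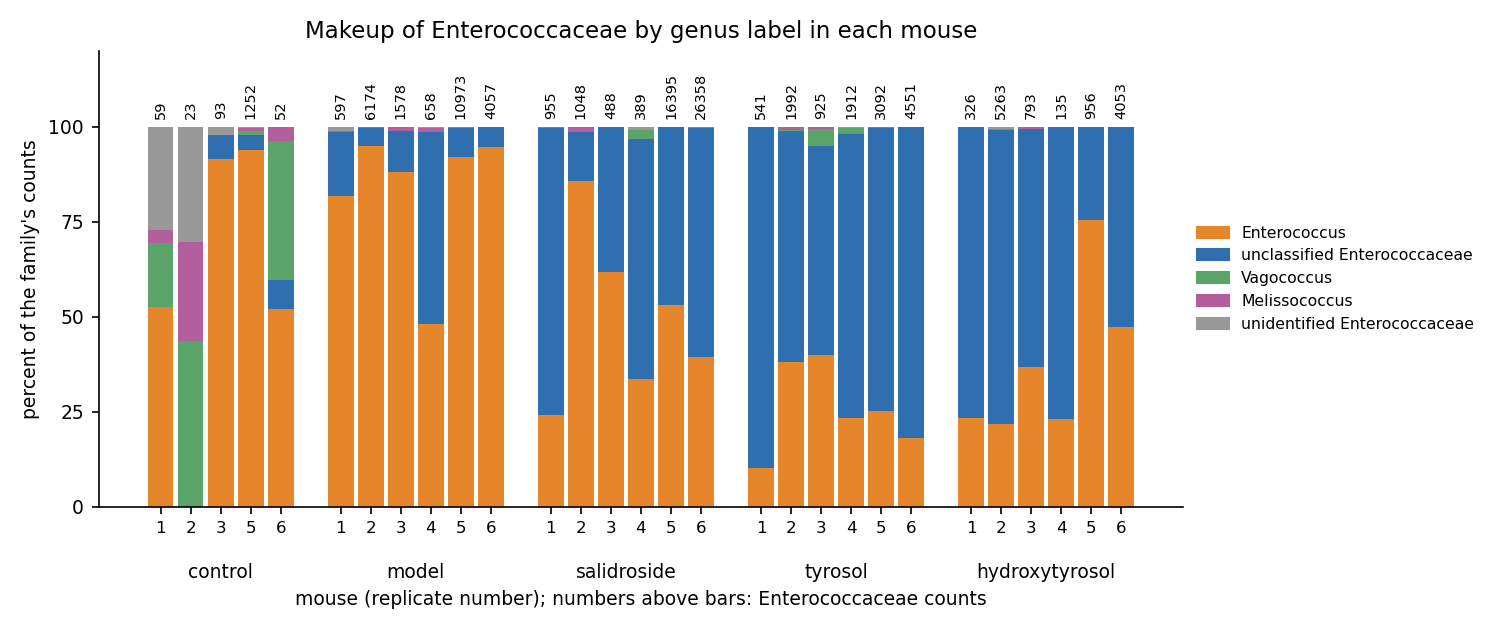
Percent of the Enterococcaceae counts of each mouse with each genus label. Each bar is a mouse, named by its replicate number, the number above a bar is its count of Enterococcaceae, and control 4 has no bar because it had 0 such counts. Unclassified ASVs make up at most 50.6% in a model mouse and at least 55.1% in a tyrosol mouse.

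The 3 compounds are related. Salidroside is the glucoside of tyrosol, and hydroxytyrosol is tyrosol with an additional hydroxyl group on the ring. By the study's methods the doses of tyrosol and hydroxytyrosol were set from that of salidroside by moles, and all were given over the same time. All 3 pairs were compared, with p-values adjusted over the 3 pairs. For the family, the difference between salidroside and tyrosol was 6.39 points, that between hydroxytyrosol and tyrosol 0.136 points and that between salidroside and hydroxytyrosol 6.26 points, and none passed (exact permutation test, adjusted p = 0.588, 0.939 and 0.588). The difference between hydroxytyrosol and tyrosol had no stable direction, with -1.15 points of the counts without Acinetobacter and -0.211 on the log10 scale. For Enterococcus the adjusted p-values were 0.386, 0.481 and 0.386, and for the unclassified label 0.666, 0.900 and 0.666, in the same order and by the same exact permutation test.

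The intervals of these pairs were wide. Between hydroxytyrosol and tyrosol, which differ by the hydroxyl group, the 95% interval in edgeR ran from -2.15 to 1.87 for the family, from -1.43 to 2.74 for Enterococcus and from -2.17 to 2.07 for the unclassified label, all on the log2 scale. Between salidroside and tyrosol, which differ by the glucose, it ran from -0.60 to 3.99 for the family, from 0.30 to 5.53 for Enterococcus and from -1.13 to 4.07 for the unclassified label. The estimate for Enterococcus, 2.92, was not called in edgeR (adjusted p = 0.407) and was called in DESeq2 (3.27, adjusted p = 0.0397). Between salidroside and hydroxytyrosol the intervals ran from -0.87 to 4.41 for the family, from -0.35 to 5.64 for Enterococcus and from -1.04 to 5.06 for the unclassified label.

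**Figure D3:**
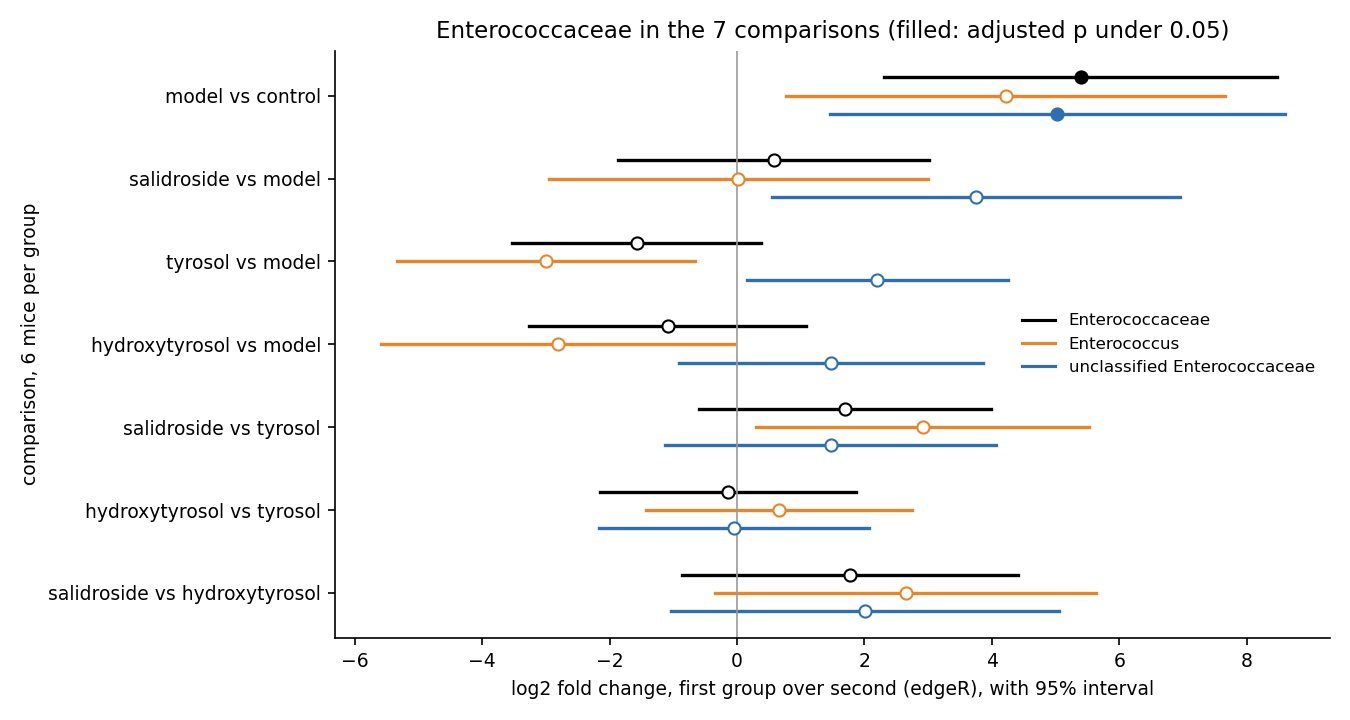
Log2 fold change from edgeR, with an approximate 95% interval derived from its F statistic, for Enterococcaceae, Enterococcus and unclassified Enterococcaceae in the 7 comparisons of 6 against 6 mice. Filled points have an adjusted p under 0.05, which holds for the family and the unclassified label in model against control mice.

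The number of family ASVs per mouse was counted in the authors' table rarefied to 39768 counts per mouse, which holds 274 members. Control mice had from 0 to 20 (mean 7.67 ± 6.83, SD), model mice from 9 to 43 (24.7 ± 13.2), salidroside mice from 26 to 91 (42.2 ± 25.4), tyrosol mice from 22 to 56 (43.7 ± 12.2) and hydroxytyrosol mice from 9 to 42 (22.3 ± 11.1), with 6 mice each. Model exceeded control mice by 17 ASVs (exact permutation test, p = 0.0281), tyrosol exceeded model mice by 19 (p = 0.0368) and hydroxytyrosol mice had a difference of -21.3 from tyrosol mice (p = 0.0173, 3 of 36 pairs higher). Adjusted over the 7 comparisons each of these exact permutation p-values was 0.0859. The other differences were 17.5 for salidroside against model, -2.33 for hydroxytyrosol against model, -1.5 for salidroside against tyrosol and 19.8 for salidroside against hydroxytyrosol mice (exact permutation test, p = 0.162, 0.749, 0.929 and 0.0866). The difference between model and control mice did not pass without model 1, model 4, model 5 or control 4, with differences from 13.3 to 15.5, and that between tyrosol and model mice not without any of 8 mice (all but tyrosol 1, model 1, model 4 and model 5).

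Among single members, ASV_44518 of Enterococcus was the largest, with 33.6% of the family's counts. It had 0 counts in all 6 control mice and counts in all 6 model mice, from 85 to 8758 (median 1893), which corresponds to shares from 0.0969% to 8.39%. The groups did not overlap, which held in this direction for 0.157% of the 7652 ASVs with a count in these mice. This base is wide, because 71.1% of all ASVs were found in 1 mouse and could not fill a group. The mean share of ASV_44518 in model mice, 3.06%, was at least 689-fold above the floor of 3 counts per control mouse, and at least 449-fold without model 5. It ranged from 78 to 5785 counts in salidroside mice (median 164.5), from 0 to 418 in tyrosol mice (median 169.5) and from 24 to 1438 in hydroxytyrosol mice (median 296.5). These ranges overlapped that of the model mice. In the treated groups 17 of 18 mice had it, and tyrosol 1 did not.

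ASV_63299, labelled Enterococcus casseliflavus, a motile, yellow-pigmented species also found on plants, is described because of its values in the control mice. It had counts in 3 of 6 control mice (351 in all, of which 316 in control 5), in 3 model, 4 salidroside, 6 tyrosol and 2 hydroxytyrosol mice. Its highest share, 1.38%, was in salidroside 2. The member with most counts in a mouse was ASV_15581 of Enterococcus in control 1, control 3 and control 5, ASV_39029 of Vagococcus in control 2 and control 6, and ASV_44518 in all model mice but model 1. In the treated groups ASV_81202 led in all tyrosol mice but tyrosol 2, and in some salidroside and hydroxytyrosol mice.

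The 4 largest unclassified members ran together in the treated mice with most counts of ASV_81202. ASV_81202 had 0 counts in control mice and 240 in 4 of the 6 model mice, and ASV_43459 had 68 in 3 model mice. Both had counts in at least 17 of the 18 treated mice. In the 12 mice with at least 100 counts of ASV_81202, all of them treated, ASV_1360 had from 0.441 to 0.856 counts per count of ASV_81202 (median 0.527), ASV_43459 from 0.409 to 0.703 (median 0.508) and ASV_20714 from 0.447 to 0.622 (median 0.491). Over the same mice ASV_44518 had from 0 to 2.09 counts per count of ASV_81202. From 111 to 5527 counts of the lead, each of the 3 ratios among the unclassified ASVs thus stayed within 1.94 times, while ASV_44518 was at 0 in 1 of these mice.

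ASV_1360 and ASV_20714 had 0 counts in all 12 control and model mice, before and after the authors' removal of singletons. ASV_1360 had counts in all 18 treated mice, from 7 to 3609 in salidroside (median 80), from 71 to 479 in tyrosol (median 215.5) and from 18 to 879 in hydroxytyrosol mice (median 57). No treated mouse overlapped a model mouse, which held for 0.0729% of ASVs with salidroside, 0.432% with tyrosol and 0.257% with hydroxytyrosol. Against the floor of 3 counts per model mouse its mean share was at least 316-fold higher with salidroside, 82.0-fold with tyrosol and 97.6-fold with hydroxytyrosol, and 125-fold, 63.3-fold and 38.1-fold without the highest mouse of each group. ASV_20714 had counts in 16 of the 18 treated mice, up to 2473 in salidroside 6. Of the 12980 ASVs, 2 had 0 counts in control and model mice and counts in at least 17 of 18 treated mice. They were ASV_1360 and ASV_2594 of Odoribacter, a genus of another phylum, and this pattern was looked up after the values were seen.

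**Figure D4:**
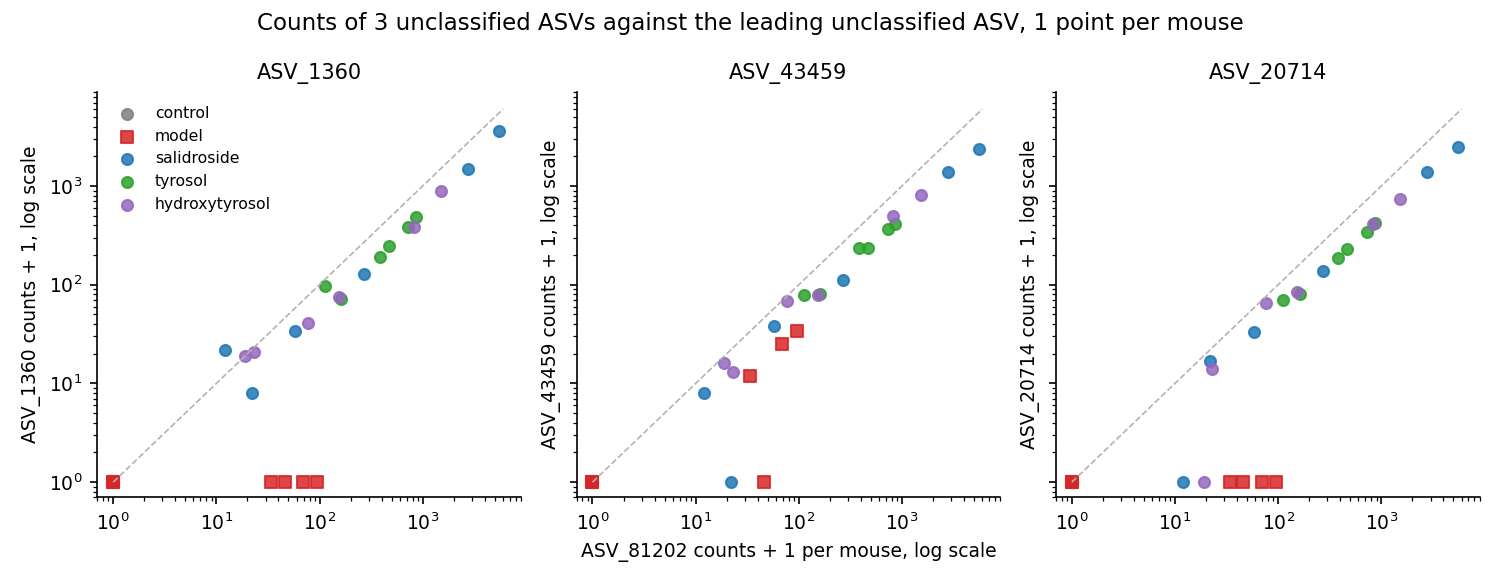
Counts of ASV_1360, ASV_43459 and ASV_20714 against those of ASV_81202, with 1 added, on log scales. Each point is a mouse, and the dashed line marks equal counts. All 12 control and model mice lie at 0 for ASV_1360 and ASV_20714, among them 4 model mice with 33 to 94 counts of ASV_81202.

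The model mice with ASV_81202 had at least as many counts of it as several treated mice. The 4 model mice with ASV_81202 had from 33 to 94 counts of it (median 56.5) and 0 counts of ASV_1360. In the 6 treated mice with no more than 94 counts of ASV_81202, from 11 to 76 (median 21.5), ASV_1360 had from 7 to 40 counts and was found in all 6, and ASV_20714 was found in 4. This comparison was made after the values were seen, and its cause was not tested.

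Tests of single ASVs covered few members. A fit needed at least 10 counts in at least 4 of 12 mice, which left 8 of the 316 members in model against control, 18 in salidroside, 28 in tyrosol and 13 in hydroxytyrosol against model mice. A member at 0 in one group could pass this filter only by being present in the other, and every member that edgeR called in any comparison was at 0 in its lower group, so these calls and their counts are a description and support nothing. In edgeR 5 members were called higher in model than in control mice, where 7.3% of all 411 ASVs tested were called higher. Against model mice 2 members were called higher with salidroside (3.63% of all ASVs tested), 10 with tyrosol (7.55%) and 2 with hydroxytyrosol (8.28%). With 1 mouse left out the count in model against control mice was 1 without model 2, model 4 or model 5 and 3 without model 6, because the others fell below the filter, and each of the 5 was called in every fit that tested it. The count with tyrosol was 4 without tyrosol 4, tyrosol 5 or tyrosol 6, where 6 members fell below the filter, and 3 without model 3, where 7 were tested and not called. With hydroxytyrosol 2 members were called lower than in model mice, against 24.5% of all ASVs tested, and without model 2, model 4 or model 5 both fell below the filter. Without the filter edgeR called 0 members in any comparison. At an unadjusted p under 0.05, 46 of 135 members passed in model against control mice (34.1%, beside 36.9% of all ASVs), 55 of 192 with salidroside (28.6% beside 20.3%), 48 of 164 with tyrosol (29.3% beside 21.1%) and 48 of 176 with hydroxytyrosol (27.3% beside 32.2%). Among the compound pairs, 37 of 172 passed for salidroside against tyrosol (21.5% beside 21.9%), 53 of 172 for hydroxytyrosol against tyrosol (30.8% beside 27.4%) and 88 of 207 for salidroside against hydroxytyrosol (42.5% beside 38.9%).

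ASV_1360 and ASV_20714 were called with all 3 compounds. Both were at 0 in all model mice, the same 6 in each comparison, so the 3 calls are not independent of each other. How many of all ASVs were called with all 3 is not given here. The members lower with hydroxytyrosol were ASV_56098 (Enterococcus) and ASV_59157 (unclassified). ASV_59157 had from 3 to 335 counts in the 6 model mice (median 19) and 0 in the 6 hydroxytyrosol mice, at least 24.9-fold lower, or 11.2-fold without model 5. ASV_56098 had up to 358 counts in 5 model mice and 0 in hydroxytyrosol mice, at least 27.4-fold lower, or 13.0-fold without model 5.

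Between hydroxytyrosol and tyrosol mice, 10 of 26 members tested were called lower in hydroxytyrosol mice, against 23.2% of 319 ASVs tested, and all 10 had 0 counts in the hydroxytyrosol group and entered the fit through the tyrosol mice. Each was called in every fit with 1 mouse left out that tested it, and without tyrosol 4, tyrosol 5 or tyrosol 6 only 2 of the 10 passed the filter, and without tyrosol 2 only 5. Among them were ASV_59010, with up to 239 counts in 5 tyrosol mice, ASV_37596, with up to 200 in 5 tyrosol mice, and ASV_79552 of Enterococcus, with up to 31 in 5 tyrosol mice. The highest counts of the first 2 were in tyrosol 6. Between salidroside and hydroxytyrosol mice 1 of 13 was called higher, the unclassified ASV_90719 (against 7.56% of ASVs tested), with 0 counts in hydroxytyrosol mice and 235 of its 270 salidroside counts in salidroside 6, and it was called in the 8 of 12 fits with 1 mouse left out that tested it. Without salidroside 1, 2, 5 or 6 it fell below the filter. Between salidroside and tyrosol mice 0 of 35 were called in edgeR, 6 had an unadjusted p under 0.05 (17.1%, beside 7.11% of all 394 ASVs tested), and DESeq2 also called 0.

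**Figure D5:**
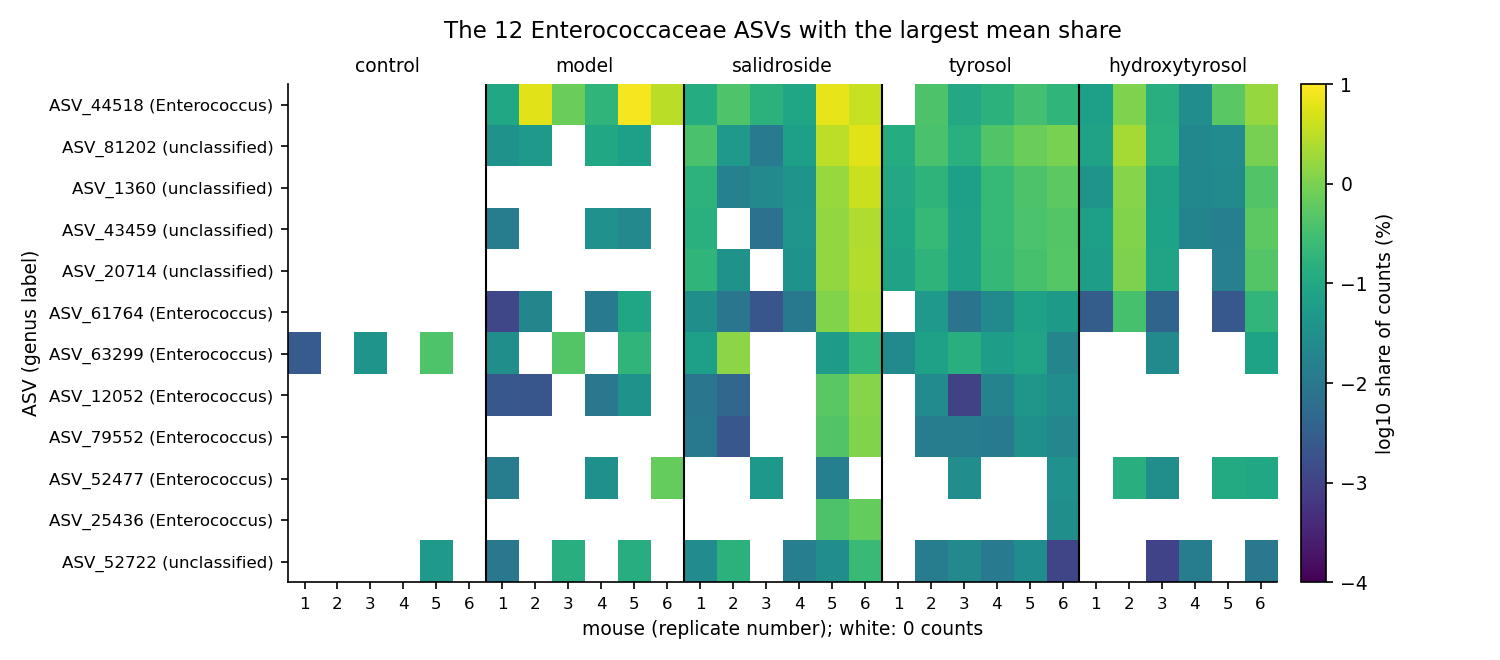
Log10 share of counts (%) of the 12 Enterococcaceae ASVs with the largest mean share in the 30 mice, with white for 0 counts. Control mice hold at most 2 of the 12, and ASV_1360, the third row, is white in all control and model mice and filled in all treated mice.

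Relatives of the family were set beside it. Of 5 other families of Lactobacillales with counts, 3 or 4 were tested per comparison. In edgeR 0 were called in model against control mice, where their median log2 fold change was 0.14 beside 0.60 over all families tested and 5.39 for Enterococcaceae. Lactobacillaceae, the lactobacilli, had a log2 fold change of -1.99 (SE 1.27, adjusted p = 0.261 in edgeR) and Streptococcaceae 0.34 (SE 1.19, adjusted p = 0.856). Across the other 6 comparisons 1 was called, Carnobacteriaceae, lower with salidroside (log2 fold change -3.98, SE 1.41, edgeR, adjusted p = 0.0432, with 11.3% of families called lower). Of 8 other genera of lactic acid bacteria with counts, 5 were tested and 0 called in any comparison in edgeR. Of 6 facultative anaerobes outside the order with counts, 5 were tested, and Jeotgalicoccus, a genus of the staphylococcus family, was the 1 called, higher in model than in control mice (log2 fold change 5.07, SE 1.77, edgeR, adjusted p = 0.0368, with 7.22% of 97 genera called higher).

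The genus label whose log2 shares ran most like those of both main labels was unclassified Lactobacillales, ASVs of the order with no family. Among 91 genus labels and over 30 mice, Spearman's rho was 0.777 with Enterococcus and 0.856 with unclassified Enterococcaceae. These 354 ASVs had a median share of 0.0436% in control, 0.239% in model, 0.204% in salidroside, 0.383% in tyrosol and 0.159% in hydroxytyrosol mice. The next for Enterococcus were unclassified Enterococcaceae (rho 0.605), unidentified Streptococcaceae (0.557), Allobaculum (0.418) and unclassified Comamonadaceae (0.359). For unclassified Enterococcaceae they were Enterococcus, the label Pseudoramibacter Eubacterium (0.585), Collinsella (0.527) and Clostridium of the Erysipelotrichaceae (0.523). Lactobacillus ran the other way, with rho of -0.247 and -0.344. These are descriptions over mice that share groups, and over shares that sum to a fixed total.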

How the data were processed

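The authors merged reads with FLASH, filtered them in QIIME, removed chimeras with UCHIME and assigned a taxonomy whose version is not given in the sources used here. The deposited values are counts per sequence, without normalization except in the table that the authors rarefied. The methods describe OTUs, while the deposited read log lists a denoising step, so sequences are called ASVs. Shares came from the authors' filtered table and ASVs per mouse from their rarefied table. The members, lists and tests were chosen with earlier results of these data known, and the lists of related taxa were written from general knowledge. Mice are numbered as in the titles, which differ from the column numbers in 3 groups. Mean shares were compared by two-sided exact permutation tests over all 924 assignments (smaller tail doubled), and counts by edgeR 4.0.16 (quasi-likelihood, TMM) over features that reached 10 counts in 4 or more of 12 mice. DESeq2 1.42.0 (poscounts) and limma 3.58.1 on centred log-ratios were alternatives, run with R 4.3.3. p-values were Benjamini-Hochberg adjusted over all taxa of a level. Named were the family, its labels, its 5 largest ASVs, up to 5 called ASVs per comparison, listed taxa and the 5 genera most like each main label. The tests were checked on simulated data. Of 75 pairs of mice within groups, 0 had identical counts. Deviations of mice with the same replicate number correlated between -0.453 and 0.448, with either sign. The main tests therefore did not pair mice by number, though these values cannot exclude a pairing. No microbial sequence is printed.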

Additional observations from a re-analysis of the deposited data

Results flagged for a closer look

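In groups of 6, the mouse at an end of its group was set against the others by the gap to the nearest mouse divided by the range of the group, and about 1 in 20 groups of normally distributed values would pass by chance. Of 38 sets of 6 values examined, 6 passed, and these shares are skewed. Control 5 stood above the other control mice in the share of Enterococcaceae, at 1.69% with the next mouse at 0.111%, in Enterococcus, at 1.59% with the next at 0.101%, and in unclassified Enterococcaceae, at 0.0675% with the next at 0.00715%. Model 5 stood above the other model mice in unclassified Enterococcaceae, at 0.815% with the next at 0.341%. Hydroxytyrosol 2 had a share of 1.22% of ASV_1360, with the next mouse of its group at 0.431%. Salidroside 6 had 91 Enterococcaceae ASVs in the rarefied table, with the next at 49.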

How the results depend on the processing

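In shares, with control 6 and model 6 left out (an alternative chosen after seeing the data), model minus control was 3.64 points for the family and 3.30 for Enterococcus, both with an exact permutation p of 0.0635. On the log10 scale the differences were -0.211 (family) and -0.0481 (Enterococcus) for hydroxytyrosol against tyrosol, -0.203 for Enterococcus with salidroside, -0.680 with tyrosol (p = 0.0541, exact permutation), and -0.0305 for the unclassified label in salidroside against tyrosol. Of counts without Acinetobacter they were -1.15 (family) and -0.135 (Enterococcus) for hydroxytyrosol against tyrosol, and for Enterococcus -3.13 with salidroside and -8.29 with hydroxytyrosol. From the unrarefied table tyrosol mice had 17 more ASVs than model mice (p = 0.0779, exact permutation).

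In fits of counts, the family in model against control mice was 3.61 without TMM, where hydroxytyrosol against tyrosol was 0.085. Enterococcus in model against control mice passed in DESeq2 (4.81), with TMM singleton pairing (5.05), in limma on centred log-ratios (6.42), with a minimum of 50 counts (4.67), with all 30 mice in 1 model (5.30) and from the unfiltered table (4.79). With salidroside it was -0.077 without the filter, -0.71 in limma, -0.25 with 50 counts and -0.26 unfiltered, and hydroxytyrosol against tyrosol was -0.23 in limma. DESeq2 called it with tyrosol (-3.02) and between salidroside and tyrosol (3.27). The unclassified label in model against control mice was 5.58 without the filter (edgeR, adjusted p = 0.0513), 4.10 and called with salidroside in DESeq2, and -0.20 for salidroside against tyrosol in limma. Called ASVs numbered 0 in every comparison without the filter. In DESeq2 they numbered 5 higher with salidroside (5.03% of all ASVs tested were called so), 1 lower with tyrosol (1.18%), 4 higher with hydroxytyrosol (14.1%) and 0 for salidroside against hydroxytyrosol (7.56%).

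The main tests did not pair mice by replicate number. With the replicate number as a block, Enterococcus differed by -3.13 points with tyrosol (p = 0.0625), -2.84 with hydroxytyrosol (p = 0.03125) and 3.16 between salidroside and hydroxytyrosol (p = 0.03125), and ASVs per mouse by 19 (p = 0.0938) with tyrosol and -21.3 (p = 0.0625) between hydroxytyrosol and tyrosol, all by exact permutation within pairs. The smallest p that exact permutation within pairs can give here is 0.03125. In edgeR the block gave -0.068 for the family and -0.86 for Enterococcus with salidroside, and -0.016 for the unclassified label between salidroside and tyrosol.

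With each mouse left out, the share differences ranged from -0.849 to 0.718 for the family and from -0.970 to 0.360 for the unclassified label (hydroxytyrosol against tyrosol), and for Enterococcus from -1.15 to 1.51 with salidroside and from -3.80 to -1.94 with tyrosol. ASVs per mouse ranged from 13.3 to 20.1 (model against control), 15.9 to 23.3 (tyrosol against model), -6.27 to 1.33 (hydroxytyrosol against model), -11.3 to 1.73 (salidroside against tyrosol) and 10.1 to 23.8 (salidroside against hydroxytyrosol, past the threshold without hydroxytyrosol 2). The edgeR log2 fold changes ranged from -0.29 to 1.33 (family) and -0.81 to 0.47 (Enterococcus) with salidroside, from -0.98 to 0.52 (family), -0.30 to 0.86 (Enterococcus) and -0.99 to 0.45 (unclassified) for hydroxytyrosol against tyrosol, and in model against control mice from 3.48 to 6.85 (Enterococcus) and 4.52 to 6.95 (unclassified). Called ASVs, of which several fell below the filter when a mouse was left out, ranged from 1 to 5 higher and 0 to 1 lower (model against control), 3 to 12 higher and 0 to 1 lower (tyrosol), 2 to 3 higher and 0 to 2 lower (hydroxytyrosol), 2 to 10 lower (hydroxytyrosol against tyrosol) and 0 to 1 higher (salidroside against hydroxytyrosol).

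The share of the unclassified label, which passed no threshold after adjustment, kept its direction and an unadjusted exact permutation p under 0.05 in model against control and in tyrosol against model mice under every alternative run. In the former the groups do not overlap, so leaving out a mouse could not change this. The causes of the changes were not tested. Shares cannot tell a gain of the family from a loss of other taxa, and depth limits the detection of rare members.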
